A study of Mus musculus with 24 samples.

Results

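The genes described here are the homeobox families Hox, Pax, Lhx, Nkx, Irx, Onecut and Dlx together with the Gata and Tbx families, all of them transcription factors of the embryo. Genes were taken by symbol, from families chosen with earlier results of these data known. Of the 24340 genes listed for the striatum, 104 belonged to these 9 families. Of these, 39 were Hox genes. RNA was sequenced from the striatum of 24 male littermate mice on a C57BL/6J background. The R6/1 mice were hemizygous for a transgene with exon 1 of human HTT, which carries an expanded CAG repeat and models Huntington's disease (HD), and the wild type (WT) mice lacked it. Mice of both genotypes received either RGFP109, an inhibitor of the histone deacetylases HDAC1 and HDAC3, or its solvent (vehicle), by 5 intraperitoneal injections a week over 3 weeks, with RGFP109 at 30 mg/kg. Injections began at an age of 11 to 14 weeks, and tissue was taken at 14 to 17 weeks, 18 h after the final dose. The groups were WT-vehicle (n = 5 libraries), R6/1-vehicle (n = 6), WT-RGFP109 (n = 6) and R6/1-RGFP109 (n = 7).

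These factors divide the embryo into regions and cell types. Most are switched off in cells that do not need them, and many, the Hox clusters above all, then carry the histone mark of the Polycomb complexes over promoters rich in CG dinucleotides. A small set stays on in the adult forebrain, where Dlx factors and the LIM factors Lhx6 and Lhx8 mark GABA and cholinergic neurons. Removal of acetyl groups from histones by HDAC1 and HDAC3 accompanies gene repression, so silent developmental genes are a place to look for loss of repression, both in R6/1 mice and under the inhibitor.

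Values are fragment counts scaled to transcript length and to the number of mapped fragments (FPKM), so that genes of different length can be compared. Each deposited table gave 1 pooled value per group and no value per library, so no replicate error could be computed here. The test results that the authors deposited with these values were not used. No difference below therefore has a test, and all comparisons are descriptions of these groups. A log2 ratio was taken between the groups of a pair after adding 0.05 FPKM to each value, which understates ratios of low genes. A gene was counted as past the fold when its log2 ratio was above 0.5 or below -0.5, a ratio of 1.41. From the spacing of low values, where 1 fragment is the smallest step, the pooled depth was about 56500000 fragments in WT-vehicle, 75200000 in R6/1-vehicle and 99000000 in R6/1-RGFP109. The share of low values within 0.1 of a whole step was 57.3% in WT-vehicle, 76.4% in R6/1-vehicle and 55.4% in R6/1-RGFP109. In WT-RGFP109 it was 29.8% and the steps were not resolved, so fragment numbers are given only for the other 3 groups. In bulk striatum, fewer cells of a type and less RNA per cell cannot be told apart.

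Most of these genes were at or near silence. In all 4 groups 20 of the 104 were listed at 0, another 56 had a mean over the groups above 0 but under 0.1 FPKM, 16 had a mean from 0.1 to under 1 FPKM and 12 had a mean of at least 1 FPKM. Together 73.1% were under 0.1 FPKM, compared with 30.9% of all genes. The Hox family was the most silent, with all 39 genes under 0.1 FPKM and 14 of them listed at 0. The highest value of any Hox gene in any group was 0.124 FPKM, for Hoxd1 in WT-vehicle. Among the other families, Gata4 and Gata5, which act in heart and gut, were listed at 0, as were Irx4, Nkx2-4, Nkx2-6 and Nkx3-2. The 12 genes of at least 1 FPKM comprised 4 Dlx, 3 Lhx and 3 Nkx genes, Pax6 and Onecut2.

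**Figure D1:**
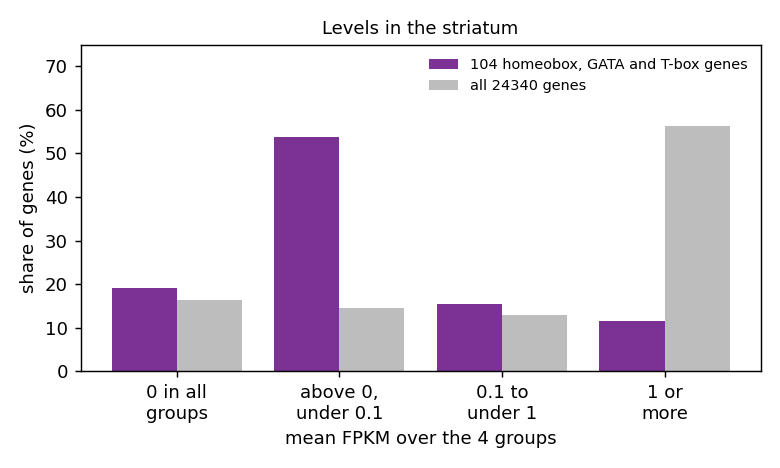
Share of genes (%) by mean FPKM over the 4 groups, for the 104 homeobox, GATA and T-box genes (purple) and all 24340 genes (grey). Of the 104 genes, 53.8% lay above 0 but under 0.1 FPKM, compared with 14.6% of all genes, and 11.5% reached 1 FPKM, compared with 56.3%.

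Many of the silent genes had promoters rich in CG, a property that the choice by symbol did not use. Promoters of 66 of the 104 genes were matched in RefSeq (GRCm38.p6), each as 300 bases from 250 before to 50 after a start of the gene. The 49 silent genes with a promoter (mean under 0.1 FPKM) held a median of 17 CG dinucleotides, a motif that reads the same on both strands. All genes under 0.1 FPKM held a median of 2, and all genes of at least 1 FPKM held a median of 21. At least 20 CG were found in 46.9% of the silent developmental promoters and in 3.71% of all promoters of genes under 0.1 FPKM. By this measure the silent developmental promoters were closer to those of expressed genes than to those of other silent genes. The 22 matched Hox promoters held a median of 13.5 CG, near the median of 14 over the promoters of all genes. The motif TATAAA was found on either strand within the last 100 bases before the start in 4.55% of the 66 promoters and in 5.8% of all promoters. The 150 bases before the start are shown, with CG in capitals, for 4 genes that were higher in R6/1 mice in both genotype comparisons below and for Hoxa13, which was listed at 0 in every group. They lie on GRCm38.p6 at chr9:74861771-74861920 (Onecut1, plus strand), chr19:44756756-44756905 (Pax2, plus), chr2:74704465-74704614 (Hoxd8, plus), chr19:43612175-43612324 (Nkx2-3, plus) and chr6:52260881-52261030 (Hoxa13, minus).
Onecut1: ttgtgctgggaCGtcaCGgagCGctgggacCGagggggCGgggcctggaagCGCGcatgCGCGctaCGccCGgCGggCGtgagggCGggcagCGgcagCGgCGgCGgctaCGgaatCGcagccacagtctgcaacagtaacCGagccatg
Pax2: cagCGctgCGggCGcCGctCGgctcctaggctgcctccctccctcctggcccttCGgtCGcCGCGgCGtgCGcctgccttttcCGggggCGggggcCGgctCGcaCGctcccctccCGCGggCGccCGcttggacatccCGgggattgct
Hoxd8: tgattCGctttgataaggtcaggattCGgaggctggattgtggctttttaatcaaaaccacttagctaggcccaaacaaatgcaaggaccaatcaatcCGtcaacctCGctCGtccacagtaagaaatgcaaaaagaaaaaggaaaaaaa
Nkx2-3: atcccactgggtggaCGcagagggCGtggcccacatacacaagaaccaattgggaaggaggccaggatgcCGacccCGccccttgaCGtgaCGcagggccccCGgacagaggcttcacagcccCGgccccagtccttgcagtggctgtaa
Hoxa13: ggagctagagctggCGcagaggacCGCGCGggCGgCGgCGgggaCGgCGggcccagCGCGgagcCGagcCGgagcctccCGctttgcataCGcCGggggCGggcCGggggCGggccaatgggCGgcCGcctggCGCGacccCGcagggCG
Onecut1 and Pax2 each had 21 CG in these 150 bases and Hoxa13 had 25, whereas Hoxd8 had 5 and Nkx2-3 had 8. The matched promoters of Hoxa7 and Hoxc4, which are not printed, had 3 and 5. The 6 matched promoters of genes higher in both comparisons held a median of 12 CG in 300 bases, compared with 14 over all genes. The start used for Pax2 lay 488 bases before that used for its FPKM values. For Hoxa7 the first bases after the start used were not found in its transcript. Of the 5 printed, the promoter with the most CG belonged to a gene with no signal.

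The factors of forebrain GABA neurons were the main group that stayed on. Dlx6, which with Dlx5 acts in the differentiation of these neurons, had 22.8 FPKM in WT-vehicle, 20.6 in R6/1-vehicle mice, 22.5 in WT-RGFP109 and 18.5 in R6/1-RGFP109 mice. Dlx5 had 10.7, 11.2, 10.5 and 10.8 FPKM in the same order. Dlx1, which acts earlier in the lineage, had 7.52, 7.57, 7.13 and 8.47 FPKM, and its neighbour Dlx2 had 3.89, 4.32, 3.34 and 4.64 FPKM. None of these 4 Dlx genes was past the fold in either genotype comparison. Over the same groups the 9 marker genes of striatal projection neurons, which are GABA neurons and the most numerous cells of the striatum, summed to 3295 FPKM in WT-vehicle, 1294 in R6/1-vehicle mice, 3169 in WT-RGFP109 and 1162 in R6/1-RGFP109 mice. The median log2 ratio of that list was -1.36 in the vehicle pair and -1.39 in the RGFP109 pair, with 8 of 9 genes lower past the fold in each. Dlx1as, antisense to Dlx1, had 7.66 FPKM in WT-vehicle and 3.41 in R6/1-vehicle, and 6.74 in WT-RGFP109 and 3.75 in R6/1-RGFP109. Dlx6os1, on the opposite strand of Dlx6, had 5.41, 4.32, 6.40 and 4.28 FPKM in the order used for Dlx5, with log2 ratios of -0.35 with vehicle and -0.61 with RGFP109. Use of strand in the counting is not given in the sources used here, so reads of Dlx1 and Dlx1as, or of Dlx6 and its opposite-strand transcripts, may have been shared.

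Interneuron factors likewise stayed near their WT level with vehicle. Lhx6, a LIM factor of somatostatin and parvalbumin interneurons, had 8.85 FPKM in WT-vehicle, 8.28 in R6/1-vehicle mice, 9.96 in WT-RGFP109 and 7.66 in R6/1-RGFP109 mice. The markers Sst, Pvalb, Npy and Nos1 had a median log2 ratio of -0.88 in the vehicle pair and -0.97 in the RGFP109 pair, compared with -0.13 and -0.41 for Lhx6. Nkx2-1, which specifies these neurons and is kept in part of them, had 1.78, 1.93, 2.01 and 1.96 FPKM. Lhx8, a factor of cholinergic neurons, had 3.28 FPKM in WT-vehicle and 3.24 in R6/1-vehicle, but 4.49 in WT-RGFP109 and 2.80 in R6/1-RGFP109. Its log2 ratio was therefore -0.05 in the vehicle pair and -0.71 in the RGFP109 pair, where WT-RGFP109 was the highest of the 4 groups. The cholinergic markers Chat, Slc5a7, Slc18a3 and Slc10a4 were lower past the fold in both pairs, with medians of -1.05 and -1.25, and Chat itself went from 8.68 FPKM in WT-vehicle to 3.17 in R6/1-vehicle. These factors and the transmitter genes of the same cells thus had unequal ratios, and whether the difference lies in the cells or in the RNA per cell was not tested.

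**Figure D2:**
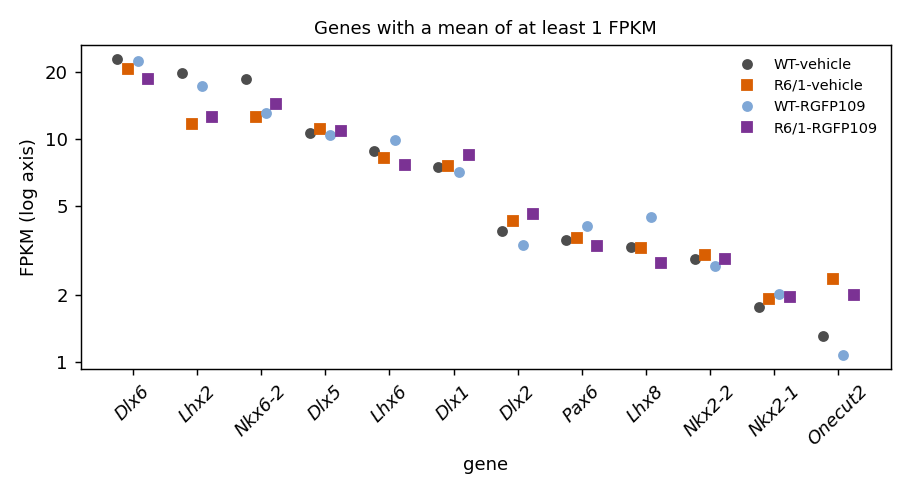
FPKM on a log axis of the 12 genes with a mean of at least 1 FPKM, with 1 pooled value per group (circles WT, squares R6/1). Onecut2 is the gene whose R6/1 values, 2.36 and 2.01, both lie well above its WT values, 1.32 and 1.08, and Lhx2 the gene whose R6/1 values, 11.7 and 12.6, both lie well below 19.7 and 17.3.

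Of the factors of other cells, Lhx2, which patterns the cortex and hippocampus, had 19.7 FPKM in WT-vehicle, 11.7 in R6/1-vehicle mice, 17.3 in WT-RGFP109 and 12.6 in R6/1-RGFP109 mice. Its log2 ratio was -0.79 in the vehicle pair and -0.49 in the RGFP109 pair, the latter just inside the limit. Markers of neocortical neurons also differed between these groups, with a list median of -0.75 in the vehicle pair, where all 7 genes were lower past the fold, and -0.13 in the RGFP109 pair, where none was. Their summed level was 354 FPKM in WT-vehicle, 199 in R6/1-vehicle mice, 326 in WT-RGFP109 and 254 in R6/1-RGFP109 mice, and their part in the Lhx2 difference was not tested. Pax6, a factor of forebrain progenitors that remains on in some olfactory and glial cells, had 3.54, 3.61, 4.09 and 3.31 FPKM. Nkx6-2, a regulator of myelinating oligodendrocytes, had 18.6 FPKM in WT-vehicle and lower levels in the other 3 groups, 12.6 in R6/1-vehicle mice, 13.1 in WT-RGFP109 and 14.4 in R6/1-RGFP109 mice. Only WT-vehicle stood out for Nkx6-2, so that its log2 ratio was -0.58 by genotype with vehicle, 0.10 by genotype with RGFP109 and -0.51 for RGFP109 in WT mice. The oligodendrocyte markers Mog, Mag, Mobp and Cnp were also highest in WT-vehicle, with summed levels of 812, 551, 623 and 589 FPKM and medians of -0.47, -0.02 and -0.39 in the same 3 pairs, and their part in the Nkx6-2 values was not tested. The 3′ end of Nkx6-2 overlaps that of Inpp5a on the opposite strand, which had 27.6, 23.1, 27.5 and 23.7 FPKM. Nkx2-2, which acts earlier in oligodendrocyte differentiation, had 2.91, 3.02, 2.70 and 2.92 FPKM.

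The genotype comparison was made in separate mice with vehicle and with RGFP109. With vehicle, 2 of the 28 genes with a mean of at least 0.1 FPKM were higher past the fold in R6/1 mice, where 5.47% of all such genes were, and 5 were lower, where 12.7% of all such genes were. The higher genes were Onecut1 and Onecut2 and the lower genes included Lhx2, Lhx9, Nkx6-2 and Tbx1. With RGFP109, 5 were higher (5.19% of all such genes), namely Onecut1, Onecut2, Dlx4, Irx5 and Lhx5, and 4 were lower (11.2%), among them Lhx3, Lhx8 and Lhx9. At 0.1 to under 1 FPKM, 1 of 16 was higher with vehicle (12.2% of all genes at that level) and 3 were lower (23.8%). With RGFP109 4 of these 16 were higher (12.6% of all genes at that level) and 3 were lower (22.4%). The median log2 ratio of the 28 genes was close to 0, at 0.0012 with vehicle and 0.012 with RGFP109. Of all 104 genes, 8 were higher past the fold in both comparisons (1.89% of all genes were) and 2 were lower in both (5.87% of all genes were). This joint count was added after the values had been seen. The 8 genes were Onecut1, Onecut2, Pax2, Nkx2-3, Hoxa7, Hoxc4, Hoxc6 and Hoxd8, and Lhx9 was among the 2. For 5 of the 8 a WT group was listed at 0, so that their ratio depends on the added 0.05 FPKM.

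The Onecut factors, which act in liver, pancreas, retina and motor neurons, included the gene with the most fragments among these 8, Onecut2. Onecut1 had 0.043 FPKM in WT-vehicle and 0.040 in WT-RGFP109, and 0.287 in R6/1-vehicle and 0.273 in R6/1-RGFP109. The 2 WT values lay close together, as did the 2 R6/1 values, and the log2 ratio was 1.84 with vehicle and 1.83 with RGFP109. In the vehicle pair these values stood for about 81 fragments against 9, a ratio of 6.55 without the added 0.05 FPKM (95% interval 3.39 to 15.3). All such intervals are exact, treat the pooled fragments of a group as 1 sample and cover counting error only, not the spread between mice or copies made in PCR. Onecut2 had 1.32 and 1.08 FPKM in the WT groups and 2.36 and 2.01 FPKM in the R6/1 groups (vehicle first), with log2 ratios of 0.79 and 0.83. Onecut3, the remaining paralog, stayed under 0.1 FPKM, with 0.018 FPKM in both vehicle groups, 0.022 in WT-RGFP109 and 0.059 in R6/1-RGFP109.

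Pax2, a paired-box factor of kidney, inner ear and the midbrain-hindbrain boundary, had 0.019 FPKM in WT-vehicle, 0.173 in R6/1-vehicle mice, 0.026 in WT-RGFP109 and 0.124 in R6/1-RGFP109 mice. With vehicle this was about 54 fragments against 4, a ratio of 8.95 (95% interval 3.74 to 38.6). Nkx2-3, a factor of spleen and gut mesenchyme, was listed at 0 in both WT groups and had 0.048 and 0.046 FPKM in the R6/1 groups. With 3 fragments set in place of its count of 0 in WT-vehicle, the ratio of R6/1-vehicle to WT-vehicle was 1.71. This ratio leaves out the counting error of the about 7 fragments in R6/1-vehicle and is not a lower bound. Irx2, an Iroquois factor of heart and hindbrain, also had both R6/1 values (0.124 and 0.110 FPKM) above both WT values (0.059 and 0.065), with log2 ratios of 0.65 with vehicle and 0.45 with RGFP109. Of the 13 lists of cell type markers, the highest median log2 ratio was 0.06 with vehicle and 0.01 with RGFP109, both for meninges and mural cells. Single markers were higher, such as Slc17a6 with a log2 ratio of 0.68 with vehicle, no list covered midbrain or hindbrain, and the part of other cells in these differences was not tested.

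**Figure D3:**
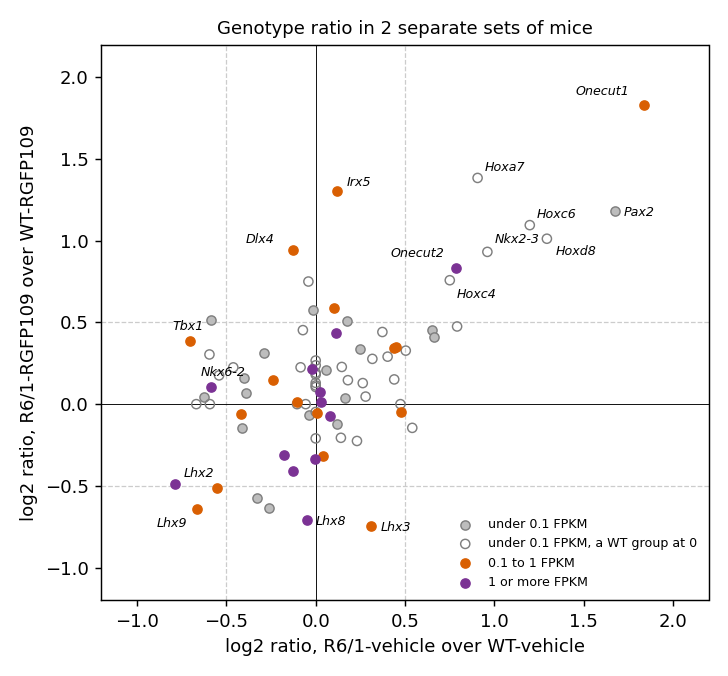
Log2 ratio of R6/1 over WT with vehicle (x axis) and with RGFP109 (y axis) for the 84 genes above 0, after adding 0.05 FPKM, with dashed lines at 0.5 and -0.5. The points in the upper right corner are the 8 genes past the fold in both, led by Onecut1 at 1.84 and 1.83, and open points have a WT group listed at 0.

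Lhx9, which was lower past the fold in each comparison, had a low level. This LIM factor of thalamus and gonad had 0.397 FPKM in WT-vehicle, 0.238 in R6/1-vehicle mice, 0.270 in WT-RGFP109 and 0.159 in R6/1-RGFP109 mice, with log2 ratios of -0.67 and -0.64. WT-vehicle was its highest group and R6/1-RGFP109 its lowest. The 9 choroid plexus markers, which stand for tissue outside the striatum, had the same highest and lowest groups, with summed levels of 1477, 642, 320 and 40.4 FPKM in the order given for Lhx9, and their part in the Lhx9 values was not tested. Other genes were past the fold by genotype with 1 of the treatments. Tbx1, a factor of the pharyngeal arches, had 0.417 FPKM in WT-vehicle, 0.243 in R6/1-vehicle mice, 0.153 in WT-RGFP109 and 0.220 in R6/1-RGFP109 mice, so that its log2 ratio was -0.70 with vehicle and 0.38 with RGFP109. Lhx3, a factor of pituitary and motor neurons, had 0.118, 0.162, 0.146 and 0.069 FPKM. Lhx5, a factor of the diencephalon, had 0.113, 0.128 and 0.128 FPKM in the first 3 groups and 0.222 in R6/1-RGFP109. The remaining genes between 0.1 and 1 FPKM, namely Gata2, Tbx2, Tbx3, Tbx6, Tbx15, Tbx18 and Irx1, were past the fold in none of the 4 comparisons.

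Signal from the silent genes was then compared between the genotypes. Crossing of 0.1 FPKM was rare. With vehicle Irx2, Onecut1 and Pax2 crossed it upward in R6/1 mice (1.33% of all genes did) and Hoxd1 and Irx3 crossed it downward (1.89%). With RGFP109 Irx2, Irx5, Onecut1 and Pax2 crossed upward (1.26%) and Lhx3 downward (1.81%). Below that limit, 22 of the 56 genes above 0 had both R6/1 values above both WT values, where 13.4% of all genes in this range did, and 4 of the 56 (Tbx21, Nkx1-2, Hoxb4 and Pax8) had both below, where 18.7% did. In all genes of this range the lower pattern was the more frequent, whereas among the developmental genes it was the higher one. The 76 silent genes summed to 1.00 FPKM in WT-vehicle, 1.47 in R6/1-vehicle mice, 0.624 in WT-RGFP109 and 1.39 in R6/1-RGFP109 mice, and all 7518 genes under 0.1 FPKM to 105, 90.1, 98.8 and 87.1 FPKM. Of the silent genes 8 were listed at 0 in both WT groups and above 0 in both R6/1 groups (1.56% of all genes under 0.1 FPKM were), and 1 had the opposite pattern (1.16%). The 8, named after their values had been seen, were Hoxb13, Hoxc10, Hoxd8, Hoxd9, Nkx2-3, Pax9, Tbx5 and Tbx20, and the opposite gene was Pax8. Apart from Hoxd8 and Nkx2-3, none of them had more than about 5 fragments in an R6/1 group, and the R6/1 groups were the more deeply sequenced of those with a known depth.

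The 39 Hox genes summed to 0.371 FPKM in WT-vehicle, 0.578 in R6/1-vehicle mice, 0.0982 in WT-RGFP109 and 0.408 in R6/1-RGFP109 mice. Per 100000000 mapped fragments these sums stood for about 65.5 fragments (95% interval 46.1 to 90.3) in WT-vehicle, 99.8 (78.5 to 125) in R6/1-vehicle and 73.7 (57.8 to 92.7) in R6/1-RGFP109. The intervals of the 3 groups overlap. Paralogs 4 to 8, which act in the trunk, summed to 0.221, 0.447, 0.0251 and 0.292 FPKM in the order WT-vehicle, R6/1-vehicle, WT-RGFP109 and R6/1-RGFP109. With vehicle this was 38.9 (24.4 to 59) fragments per 100000000 in WT and 77.1 (58.6 to 99.7) in R6/1 mice, with overlapping intervals. The posterior paralogs 9 to 13 were listed at 0 in both WT groups and summed to 0.0342 FPKM in R6/1-vehicle and 0.0495 in R6/1-RGFP109, about 5 and 10 fragments. The anterior paralogs 1 to 3 summed to 0.150 FPKM in WT-vehicle and 0.0965 in R6/1-vehicle, and to 0.0731 and 0.0666 FPKM in WT and R6/1 mice with RGFP109. Paralogs 4 to 8 thus held the larger part of the Hox signal in every group except WT-RGFP109.

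The clusters also differed. The Hoxc cluster summed to 0.0445 FPKM in WT-vehicle and 0.229 in R6/1-vehicle, or 7.08 (1.93 to 18.1) and 39.9 (26.9 to 57) fragments on the same scale, and these intervals do not overlap. With RGFP109 it summed to 0.0060 FPKM in WT and 0.150 in R6/1 mice. In this cluster Hoxc6 had 0.013, 0.095, 0 and 0.057 FPKM and Hoxc4 had 0.023, 0.075, 0 and 0.035 FPKM (WT-vehicle, R6/1-vehicle, WT-RGFP109, R6/1-RGFP109). The Hoxb cluster had the opposite order with vehicle, with 0.115 FPKM in WT and 0.0381 in R6/1 mice, or 23 (12.3 to 39.3) and 6.65 (2.16 to 15.5) fragments per 100000000 with overlapping intervals. With RGFP109 it had 0.0070 FPKM in WT and 0.0381 in R6/1 mice. With vehicle Hoxa stood for 12.4 (4.98 to 25.5) fragments in WT and 27.9 (17.3 to 42.7) in R6/1 mice on the same scale. Hoxd stood for 23 (12.3 to 39.3) and 25.3 (15.2 to 39.5), and the intervals overlap in both clusters. In the Hoxa cluster Hoxa7 had 0.029, 0.099, 0 and 0.081 FPKM in the order used for Hoxc6. Its ratio with vehicle, 3.38, rested on about 14 fragments against 3 (95% interval 0.979 to 19.0). The ratio was 3.13 (0.801 to 35.3) for Hoxc4 and 7.36 (1.07 to 326) for Hoxc6. Hoxd8 was listed at 0 in both WT groups and had 0.074 and 0.051 FPKM in the R6/1 groups. With 3 fragments in place of the WT count of 0, its ratio with vehicle was 2.13, leaving out the error of its about 9 fragments. Hoxd1, the Hox gene with the highest value, was lower in R6/1-vehicle (0.065 FPKM) than in WT-vehicle (0.124 FPKM). A noncoding transcript of the Hoxa cluster, Hotairm1, singled out after its values had been seen, was above every Hox gene, with 0.62 FPKM in WT-vehicle, 1.46 in R6/1-vehicle mice, 0.37 in WT-RGFP109 and 2.89 in R6/1-RGFP109 mice. It lies at chr6:52158524-52162020.

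**Figure D4:**
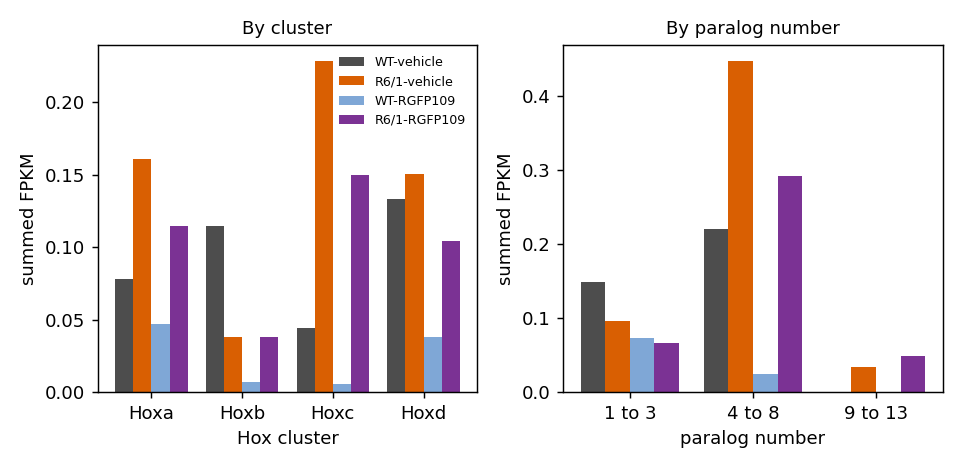
Summed FPKM of the Hox genes in each group, by cluster (left) and by paralog number (right), as bars from 0 with 1 pooled value per group. Sums of the Hoxa, Hoxc and Hoxd clusters and of paralogs 4 to 8 and 9 to 13 were higher in both R6/1 groups than in the WT group of the same treatment. With vehicle Hoxd differed little (0.133 FPKM in WT, 0.151 in R6/1 mice), and of the clusters only Hoxc had counting intervals that did not overlap. The Hoxb cluster was highest in WT-vehicle.

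RGFP109 was compared with vehicle within each genotype. In R6/1 mice 1 of the 28 genes with a mean of at least 0.1 FPKM was higher past the fold (2.43% of all such genes), namely Lhx5 with a log2 ratio of 0.61, and 2 were lower (2.84%). The lower genes were Lhx3, at -0.84, and Nkx2-9, a factor of visceral motor neurons, at -0.62. Of the 16 genes from 0.1 to under 1 FPKM, 1 was higher (6.4% of all genes at that level) and 2 were lower (8.75%). Markers of the hypothalamus, a part of the diencephalon, were also higher in this pair, with a median log2 ratio of 0.94 and 4 of 7 past the fold. By genotype with vehicle their median was -1.51 and 5 of 7 were lower past the fold, whereas the log2 ratio of Lhx5 was 0.10. The part of these markers in the Lhx5 value was not tested. All 12 genes of at least 1 FPKM stayed inside the limit (3.03% of all such genes were past it), with log2 ratios from -0.23 to 0.18. No gene crossed 0.1 FPKM upward with RGFP109 in either genotype (1.21% of all genes did in R6/1 and 1.41% in WT mice). In R6/1 mice Hoxa7 and Lhx3 crossed downward in the table of this pair (1.2% of all genes), where Hoxa7 had 0.102 FPKM with vehicle and thus lay at the limit. Among the 56 silent genes above 0, 3 were higher past the fold in R6/1 mice (8% of all genes in this range), namely Onecut3, Gata6 and Tbx4, and 2 were lower (8.79%), namely Hoxc4 and Lhx4, all named after their values had been seen. Onecut1, with a log2 ratio of -0.06, Onecut2, with -0.23, and Pax2, with -0.37, were inside the limit.

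In WT mice none of the 28 genes was higher past the fold with RGFP109 (2.84% of all such genes) and 5 were lower (4.29%). These were Tbx1 at -1.19, Irx5, an Iroquois factor of heart and retina, at -1.11, Dlx4, a factor of placenta and jaw, at -1.06, Nkx2-9 at -0.52 and Nkx6-2 at -0.51. Of the 16 genes from 0.1 to under 1 FPKM, 0 were higher (7.89% of all genes at that level) and 4 were lower (13.9%). Irx5 had 0.135 FPKM in WT-vehicle, 0.155 in R6/1-vehicle mice, 0.035 in WT-RGFP109 and 0.163 in R6/1-RGFP109 mice, and Dlx4 had 0.268, 0.246, 0.102 and 0.248 FPKM. For Irx5, Dlx4 and Tbx1 the WT-RGFP109 group stood below the other 3, and the same low value enters their genotype ratios with RGFP109, which were 1.30, 0.94 and 0.38. Nkx2-9 had 0.819 FPKM in WT-vehicle, 1.16 in R6/1-vehicle mice, 0.555 in WT-RGFP109 and 0.735 in R6/1-RGFP109 mice, and was lower with RGFP109 in both genotypes. All 9 choroid plexus markers were also lower past the fold with RGFP109 in both genotypes, with median log2 ratios of -2.61 in R6/1 and -1.94 in WT mice. By genotype with vehicle their summed level was lower in R6/1 mice (642 against 1477 FPKM), whereas Nkx2-9 was higher. The sum was lowest in R6/1-RGFP109, at 40.4 FPKM, where Irx5, Dlx4, Tbx1 and Nkx6-2 were above their WT-RGFP109 values. The part of these markers in the values of Nkx2-9 and the other genes lower in WT mice was not tested. Of the 56 silent genes above 0, 1 was higher past the fold in WT mice (10.8% of all genes in this range) and 8 were lower (13.9%). Hox genes made up 7 of these 8 and 25 of the 56. Apart from Hoxd1, each of these 7 had only about 2 to 4 fragments in WT-vehicle, and the depth of WT-RGFP109 was not resolved. Hoxd1, Irx3, Irx5 and Dlx4 crossed 0.1 FPKM downward in the table of this pair (1.41% of all genes), where Dlx4 had 0.0995 FPKM in WT-RGFP109 and thus lay at the limit. The summed level of the 76 silent genes was not higher with the inhibitor in either genotype at 18 h after the last injection, with 1.00 FPKM with vehicle and 0.624 with RGFP109 in WT mice, and 1.47 and 1.39 FPKM in R6/1 mice. The number of them above 0 went from 32 to 27 in WT and from 43 to 48 in R6/1 mice, while that of all 7518 genes under 0.1 FPKM went from 2424 to 2631 in WT and from 2488 to 2631 in R6/1 mice.

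**Figure D5:**
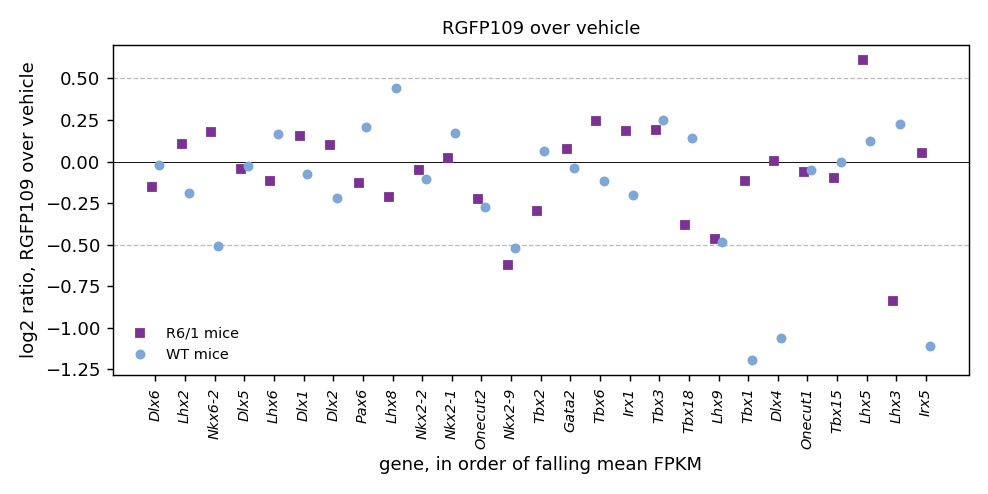
Log2 ratio of RGFP109 over vehicle, after adding 0.05 FPKM, in R6/1 mice (squares) and WT mice (circles) for 27 of the 28 genes with a mean of at least 0.1 FPKM, in order of falling mean. Genes of at least 1 FPKM, on the left, lie between -0.23 and 0.18 in R6/1 mice, and the points below -1 are Tbx1, Dlx4 and Irx5 in WT mice.

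A separate list of 51 other developmental factors, mostly homeobox, forkhead and basic helix-loop-helix genes, was used for comparison. Of these 27 had a mean of at least 0.1 FPKM. With vehicle 6 were higher past the fold in R6/1 mice (5.47% of all such genes) and 7 were lower (12.7%). Their median log2 ratio was -0.10. With RGFP109 2 were higher (5.19% of all such genes) and 7 were lower (11.2%), with a median of -0.14. Twist1, a factor of mesenchyme, was higher in both, with 0.12 FPKM in both WT groups, 0.80 in R6/1-vehicle and 0.75 in R6/1-RGFP109. Isl1, a LIM factor of striatal neurons of the direct pathway and of cholinergic neurons, had 4.47 FPKM in WT-vehicle, 7.29 in R6/1-vehicle mice, 5.51 in WT-RGFP109 and 7.49 in R6/1-RGFP109 mice. Treated against untreated R6/1 mice, 2 of the 27 were higher (2.43% of all such genes) and 4 lower (2.84%), with a median of -0.01. In WT mice 6 were higher with RGFP109 (2.84% of all such genes) and 5 lower (4.29%), with a median of 0.04. Otx2, Emx1, Tbr1, Eomes and Sim1 of this list are also in the marker lists of choroid plexus, neocortex, olfactory bulb or hypothalamus.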

How the data were processed

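Total striatal RNA of 24 mice was made into libraries with the TruSeq RNA kit and read as single ends in 2 pools. The authors aligned the reads with STAR (2.5.0b) to mm10 and computed FPKM values with Cufflinks and Cuffdiff (2.2.1), and deposited 6 tables, 1 per pair of groups, each with 1 FPKM value per group. Their columns of fold changes, test statistics, p-values and q-values were not used. A pool could not be entered as a term, because each value covers all libraries of a group.

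A group's level was its mean over its 3 tables, which differed by at most 3.98% for the genes described. Ratios were taken within the table of a pair after adding 0.05 FPKM. Genes were called measured at a mean of at least 0.1 FPKM over the 4 groups. Fragments were estimated as FPKM times transcript length less 200 bases, divided by the step of 1 fragment, so they are approximate. For a ratio to a WT count of 0, 3 fragments were set in its place. The depth came to 11300000 to 14100000 fragments per library in the 3 groups with a resolved step. Genes were named from 1 FPKM upward, from 0.1 FPKM when past the fold in at least 1 of 4 main pairs, and below that when crossing 0.1 FPKM. The families and gene lists were chosen with earlier results of these data known. Coordinates are those of mm10 (GRCm38), with gene models of GENCODE M21. Of the 104 genes, 22 shared a table locus with another gene, and reads of overlapping or antisense genes may have been shared. The ratio calculation was tested on simulated data. Alternatives covered the added constant, the minimum level, the fold, the limit, centring and the table used. Tables were handled with pandas 2.3.3 and numpy 2.4.6 under Python 3.11.15, intervals came from scipy 1.17.1 and plots from matplotlib 3.10.9. Results of some genes, which counts and sums still include, are not reported here by name.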

Additional observations from a re-analysis of the deposited data

How the results depend on the processing

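No paired analysis was possible because the tables hold 1 pooled value per group, and leaving out each replicate in turn could not be run for the same reason. Depth limits the silent genes, many of whose values stand for a few fragments. Centring on the median of all genes and taking ratios through another group's table left the counts for which they were run within 1.5 times and the medians within 0.1 on the log2 scale. In the order R6/1-vehicle over WT-vehicle, R6/1-RGFP109 over WT-RGFP109, R6/1-RGFP109 over R6/1-vehicle and WT-RGFP109 over WT-vehicle, 7, 9, 3 and 5 measured genes were past the fold. These became 4, 3, 0 and 0 after adding 0.5 FPKM, 3, 2, 0 and 1 at a minimum of 1 FPKM, 24, 21, 8 and 14 with no minimum, and 1, 2, 0 and 3 at a log2 ratio above 1. A limit of 1 FPKM left 12 measured genes in place of 28. Genes crossing the limit upward by genotype numbered 3 with vehicle and 4 with RGFP109, and became 7 and 9 at 0.05 FPKM and 0 and 0 at 0.5 FPKM. Those crossing downward numbered 2 and 1, and became 1 and 0 at 0.05 FPKM, and 1 with vehicle at 0.5 FPKM. With RGFP109 in R6/1 mice, 0 crossed upward and 3 did at 0.05 FPKM, and 2 crossed downward and 1 did at 0.5 FPKM, where in WT mice 4 became 0. The 8 genes higher in both genotype comparisons became 18 after adding 0.01 FPKM, 2 after adding 0.5 FPKM, 4 at a log2 ratio above 1 and 2 at a minimum of 0.1 FPKM. The 2 lower in both became 5 and 0 with these constants and 0 at a log2 ratio above 1. The alternatives for the joint count and for crossing with RGFP109 were chosen after seeing the data.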

Other observations

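Genes of low level other than the developmental families were also looked at, after their values had been seen. The genes above 0 with a mean under 1 FPKM were 3549 under 0.1 FPKM and 3107 from 0.1 FPKM upward. The families described held 56 and 16 of these. In this range 47 genes had a log2 ratio above 1 in R6/1 mice both with vehicle and with RGFP109, and 4 of them belonged to the families. A ratio below -1 in both was found for 141 genes, and 0 of them belonged to the families. Wt1, a zinc finger factor of kidney and gonad, had 0.01 FPKM in WT-vehicle, 0.77 in R6/1-vehicle mice, 0.02 in WT-RGFP109 and 0.74 in R6/1-RGFP109 mice. Shox2, a homeobox factor of limb and heart, had 0.04, 0.52, 0.05 and 0.35 FPKM, and Pou4f1, a factor of sensory neurons and habenula, had 0.03, 0.33, 0.01 and 0.33 FPKM. Cdkn2a, which encodes the cell cycle inhibitor p16, had 0.03, 0.47, 0.06 and 0.50 FPKM. In each of these 4 genes both R6/1 values were above both WT values. They were named after those values had been seen, so this order is not a separate result.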
